A study of Homo sapiens with 32 samples.

Results

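The plasminogen activator genes of HGrC1 cells and the genes of the serpins that restrain them were examined after long-term exposure to perfluorooctane sulfonate (PFOS), a persistent surfactant of the perfluoroalkyl family. The set was chosen by gene symbol and held 7 genes: the activators PLAU and PLAT, the receptor PLAUR, and the serpins SERPINE2, SERPINB2, SERPINF2 and SERPINF1. All 7 were found among 47137 gene entries, of which 18583 carried values. HGrC1 is an immortalized line of human granulosa cells, the cells that surround the oocyte, and it was kept in medium with serum throughout. The 8 groups of n = 4 libraries were a vehicle control (0.05% DMSO) and PFOS at 0.01 µM, 0.1 µM and 1 µM, each after 6 and after 12 weeks with renewal of PFOS at every passage. The cells came from 4 vials of the same line, and the flask grown from each was split over all 4 treatments, so replicate numbers mark vials of 1 line and not separate donors. All groups shared the same hormone supplement, which the labels name as 100 nM estradiol and the methods of the study as 100 nM testosterone.

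Total counts per library lay between 17907057 and 18553350, and 0 of 48 pairs of replicates were identical. Of 12 granulosa markers, WT1, GJA1 and AMH were present in every library, FOXL2 gave 10 to 37 counts, the aromatase gene CYP19A1 gave 0 or 1 count, and the gonadotropin receptor gene FSHR was listed without values. A gene listed without values is not thereby shown to be absent. INHA (8 to 31 counts), INHBA (123 to 412 counts), INHBB (56 to 155 counts) and FST (280 to 516 counts) were present in every library. AMHR2 (0 to 3 counts) and NR5A1 (0 to 14 counts) were low. The aromatase transcript was thus at the limit of detection, while other markers of the list were present. Among markers of other cell types, the keratin genes KRT8, KRT18 and KRT19 and the stromal genes COL1A1 and PDGFRB were abundant. The epithelial genes EPCAM (9 to 29 counts) and CDH1 (18 to 61 counts) were low, as were the stromal genes PDGFRA (1 to 40 counts) and DCN (3 to 21 counts). Of the endothelial genes, KDR gave 45 to 215 counts, PECAM1 0 to 25, VWF 4 to 16 and CDH5 3 to 15. Of the leukocyte genes, CD68 gave 243 to 497 counts, CD14 33 to 190 and PTPRC 0 to 8. Of the theca and luteal genes, STAR gave 16 to 81 counts, INSL3 0 to 5 and CYP17A1 0 to 1, and LHCGR was listed without values. A set of 6 liver transcripts (ALB, AFP, AHSG, APOB, GPC3 and AMBP) summed to at most 1 count in each control and each 0.01 µM library at 6 weeks, to between 72 and 174 counts in 23 other libraries, and to 919 counts in the control library of vial 3 at 12 weeks. That library is pointed out below wherever a result rests on it.

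In the RefSeq annotation of GRCh38.p14, PLAU spans chr10:73908832-73917494 on the plus strand, PLAUR chr19:43646095-43670169 on the minus strand and PLAT chr8:42174718-42207565 on the minus strand. SERPINE2 spans chr2:223975045-224039286 on the minus strand and SERPINB2 chr18:63887705-63903888 on the plus strand. SERPINF2 (chr17:1742871-1755265) and SERPINF1 (chr17:1762060-1777565) are neighbors on the plus strand. For PLAU, SERPINF2 and SERPINF1 the positions in the deposited table differ from these, and for SERPINF2 the table names an alternate contig.

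Plasminogen is a plasma protein that is cut into plasmin, a protease that dissolves fibrin and opens extracellular matrix. In the ovary, the breakdown of the follicle wall before ovulation is a classical setting for this system, and granulosa cells are known to produce both activators and inhibitors. The cut is made by urokinase (PLAU), which works at the cell surface when bound to its receptor (PLAUR), or by tissue plasminogen activator (PLAT), which works best on fibrin. SERPINB2 encodes plasminogen activator inhibitor PAI-2, SERPINE2 encodes protease nexin-1, which blocks thrombin as well as urokinase, and SERPINF2 encodes alpha-2-antiplasmin, which blocks plasmin itself and is made mainly in the liver. SERPINF1 encodes PEDF, a secreted serpin that inhibits no protease and is known for its action against vessel growth.

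RefSeq promoter entries were matched for 4 of the 7 genes. Below are 250 bases before a transcription start of the genes whose differences are described in most detail, SERPINB2 (chr18:63887455-63887704, plus strand), PLAUR (chr19:43670170-43670419, minus strand) and SERPINE2 (chr2:224031479-224031728, minus strand), with PLAU (chr10:73910882-73911131, plus strand) as the gene that differed little. SERPINE2 and PLAU each have a second entry, which is not printed. Each sequence runs 5′ to 3′ on the strand of its gene, and capitals mark motifs that were searched on both strands. These were the AP-1 motif, spelled TGANTCA, the CCAAT box, spelled by its name, the GC box, spelled GGGCGG, and the TATA box, spelled TATAAA.
SERPINB2: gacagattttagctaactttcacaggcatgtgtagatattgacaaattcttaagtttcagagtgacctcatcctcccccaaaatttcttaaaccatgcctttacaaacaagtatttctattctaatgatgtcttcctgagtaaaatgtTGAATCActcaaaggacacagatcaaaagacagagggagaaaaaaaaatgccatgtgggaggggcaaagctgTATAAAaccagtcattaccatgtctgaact
PLAUR: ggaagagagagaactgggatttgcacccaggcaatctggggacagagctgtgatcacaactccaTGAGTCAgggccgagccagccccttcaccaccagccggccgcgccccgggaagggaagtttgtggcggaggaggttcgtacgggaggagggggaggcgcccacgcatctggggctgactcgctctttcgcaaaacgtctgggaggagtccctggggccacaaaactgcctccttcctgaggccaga
SERPINE2, inner start: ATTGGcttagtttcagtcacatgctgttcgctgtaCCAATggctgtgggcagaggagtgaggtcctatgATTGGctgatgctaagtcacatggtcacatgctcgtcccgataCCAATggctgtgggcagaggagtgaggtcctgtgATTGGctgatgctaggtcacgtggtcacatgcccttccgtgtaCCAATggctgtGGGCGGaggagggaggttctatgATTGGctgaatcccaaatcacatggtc
PLAU, inner start: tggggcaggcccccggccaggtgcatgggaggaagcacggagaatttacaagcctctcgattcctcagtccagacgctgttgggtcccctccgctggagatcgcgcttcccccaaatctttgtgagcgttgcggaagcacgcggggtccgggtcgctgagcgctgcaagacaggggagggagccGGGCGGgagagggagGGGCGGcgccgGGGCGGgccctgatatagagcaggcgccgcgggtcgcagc

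TGANTCA was present in the windows of SERPINB2 (102 bases before the start) and PLAUR (186 bases before it), and in 6.57% of all 35116 windows of this length. SERPINB2 also held TATAAA 30 bases before its start, a motif found in 10.7% of windows. The SERPINE2 window held 7 matches to CCAAT and 1 to GGGCGG, while the PLAU window held 3 matches to GGGCGG. The second entries, not printed, differed from these. That of SERPINE2 held 0 matches to CCAAT and 2 to GGGCGG, and that of PLAU 1 and 0. The CCAAT box was found in 32.01% and the GC box in 42.6% of windows. No marked motif overlapped another in these sequences, and binding of a factor was not measured.

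Levels were compared between genes in TPM (transcript abundance scaled to the library), which the authors deposited and which accounts for transcript length. Over the 32 libraries, PLAU lay between 61.2 and 91.0 TPM (median 77.1) and PLAUR between 54.8 and 90.2 TPM (median 79.6). PLAT was the minor activator, at 7.32 to 9.92 TPM (median 8.49), so that the PLAU level was 9.06 ± 1.11 times that of PLAT (SD, n = 32). Receptor and urokinase were close to parity, with a PLAUR to PLAU ratio of 0.987 ± 0.105 (SD, n = 32).

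Among the serpins, SERPINE2 ranged most widely in absolute terms, from 15.0 to 81.2 TPM, and SERPINB2 lay between 5.94 and 34.2 TPM (median 12.3). SERPINF1 (0.49 to 1.70 TPM, 7 to 22 counts) and SERPINF2 (0.09 to 0.93 TPM, 2 to 23 counts) were barely detected, and counting error is large for both. PLG, the gene of the substrate plasminogen, had 0 counts in 28 libraries and 1 in the others, so that the transcript of the substrate was at the limit of detection.

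The first question was whether PFOS changed these genes against the vehicle control of the same time. Genes were called at an adjusted p of 0.05 or less (edgeR quasi-likelihood test, Benjamini-Hochberg adjustment over all genes), and a DEG had in addition at least a 2-fold difference. In bulk RNA, fewer expressing cells and less RNA per cell cannot be told apart. SERPINB2 at 0.1 µM after 12 weeks was the only call among the 7 genes in 6 comparisons. In the control at 12 weeks, its level was 16.7, 11.4, 34.2 and 28.6 TPM in vials 1 to 4. At 0.1 µM it was 7.95, 6.31, 7.21 and 5.94 TPM. The groups did not overlap, and the control libraries spread more widely than those at 0.1 µM, with those of vials 3 and 4 far above the other 2. Scaled counts (CPM) were 3.38-fold higher in the control, at 25.8 ± 12.3 against 7.65 ± 1.09 CPM (SD, n = 4 each). The log2 fold change was −1.75 (SE 0.38, edgeR adjusted p = 0.0493), which made SERPINB2 1 of 9 DEGs that were lower in this comparison, or 0.0706% of the genes tested. In the whole comparison 1.07% of genes were called, against 1 of the 6 members tested.

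The SERPINB2 call stood close to the threshold and depended on the libraries used. With the vial as a block, the adjusted p was 0.0902 at a log2 fold change of −1.76. Without the control library of vial 3, the log2 fold change was −1.47 (edgeR adjusted p = 0.188), and in a fit of the 31 libraries of both times that remain, chosen after the values had been seen, it was −1.48 (edgeR adjusted p = 0.015). Without the control libraries of vials 3 and 4, left out after the values had been seen, it was −1.03 (edgeR adjusted p = 0.79). When each vial was left out of both groups in turn, the adjusted p was 0.0669 to 0.54. DESeq2 gave an adjusted p of 0.00041. In an exact two-sided permutation test of log2(CPM + 1), p was 0.0286, the smallest that 4 against 4 libraries allow (42 such tests were run for PFOS against control).

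The other PFOS groups had lower SERPINB2 means than their controls as well, without a call. At 12 weeks, levels were 13.3, 12.2, 9.01 and 6.56 TPM at 0.01 µM (log2 fold change −1.14, SE 0.36, edgeR adjusted p = 0.565) and 17.1, 14, 8.99 and 7.46 TPM at 1 µM (−0.99, SE 0.35, edgeR adjusted p = 0.435). Both ranges overlapped that of the control. By vial number, SERPINB2 at 1 µM was above the control in vials 1 and 2. It was below the control in vials 3 and 4, whose controls were the highest. The pairing by vial number of the control and 1 µM at 12 weeks was not borne out by the data. Deviations of their same-numbered libraries correlated at −0.203 to −0.0937. The 0.01 µM libraries were lower in 3 vials and higher in 1. The size of both differences depended on the libraries and settings used. Over the main test and its alternatives, the 0.01 µM estimate ranged from −1.46 up to −0.42, with 0 calls. The range for the 1 µM estimate was −1.35 up to −0.26, also with 0 calls. At 6 weeks, control levels were 18.8, 17.7, 18.6 and 15.5 TPM, much more even than at 12 weeks, and those at 0.1 µM were 9.36, 11.7, 12.2 and 11.1 TPM. The groups did not overlap, which by itself places 0.1 µM lower in 4 of 4 vials. The log2 fold change was −0.62 (SE 0.20, edgeR adjusted p = 0.102), past the threshold with DESeq2 (adjusted p = 0.0462) and in a fit of these 8 libraries alone (edgeR adjusted p = 0.00027). It was −0.28 at 0.01 µM and −0.18 at 1 µM. Of the 3 concentrations, the middle one had the largest SERPINB2 difference at both times. The trend over concentration steps at 12 weeks was −0.37 per step (SE 0.14, edgeR adjusted p = 0.298), where 0.416% of genes were called.

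Neither activator was called against control. PLAU at 12 weeks was 71.5, 82.0, 82.3 and 83.1 TPM in the control and 74.9, 71.0, 71.2 and 61.2 TPM at 0.1 µM. Vial 1 of the control fell within the exposed range, and the log2 fold change was −0.23 (SE 0.09, edgeR adjusted p = 0.225). At 0.01 µM it was −0.21 (SE 0.09, edgeR adjusted p = 0.573) after 12 weeks and 0.14 (SE 0.06, edgeR adjusted p = 0.5) after 6 weeks. At 0.1 µM after 6 weeks it was 0.08 (SE 0.06, edgeR adjusted p = 0.514). The PLAT groups lay within 7.97 to 9.01 TPM in their means, and every pair of PLAT groups next to each other in order of level overlapped.

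The receptor gene PLAUR had 73.7, 61.5, 85.6 and 81.0 TPM in the control at 12 weeks and 63.4, 60.4, 59.4 and 61.1 TPM at 0.1 µM. The exposed libraries were tightly grouped and the control of vial 2 fell among them. The log2 fold change was −0.34 (SE 0.09, edgeR adjusted p = 0.0889), and PLAUR was lower at 0.1 µM in 4 of 4 vials. This difference was called with DESeq2 (adjusted p = 0.032) and in a fit of all 32 libraries (edgeR adjusted p = 0.00807), and it was −0.26 (edgeR adjusted p = 0.358) without the control library of vial 3. At 6 weeks the log2 fold change at 0.1 µM was −0.11 (SE 0.04, edgeR adjusted p = 0.159).

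SERPINE2, protease nexin-1, was 81.2, 69.95, 78.9 and 68.2 TPM in the control at 6 weeks and 61.9, 62.0, 67.8 and 57.1 TPM at 0.1 µM. The highest exposed library lay just under the lowest control library in TPM, whereas the groups overlapped in scaled counts. The log2 fold change was −0.24 (SE 0.07, edgeR adjusted p = 0.0746), and with the vial as a block it passed the threshold (edgeR adjusted p = 0.00787). At 12 weeks it was −0.48 at 0.1 µM (SE 0.17, edgeR adjusted p = 0.211), where the control library of vial 3, at 32.8 TPM, stood above the other control libraries at 17.5 to 20.5 TPM. Without that library it was −0.24 (edgeR adjusted p = 0.506).

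At 6 weeks, 0 of 7 members were called at any concentration by edgeR. Over all genes, the share called was 0% at 0.01 µM, 4.24% at 0.1 µM and 0.28% at 1 µM, and 0.701% for the trend. At an unadjusted p under 0.05, edgeR gave 2 members at 0.01 µM, 4 at 0.1 µM, 0 at 1 µM and 1 for the trend. Over all 12836 genes tested, 1232, 2665, 1757 and 2113 were under this cut, in the same order. DESeq2 called 2 members at 0.1 µM (SERPINE2 and SERPINB2), beside 624 of all genes. At 12 weeks the share of all genes called was 0% at 0.01 µM and 0.22% at 1 µM, with 0 of 6 members called at either. Unadjusted p was under 0.05 for 3 and 1 of them, beside 1080 and 1115 of all 12742 genes tested. DESeq2 called 0 members at either concentration. For 0.1 µM, the members tested had a median log2 fold change of 0.07 after 6 weeks and of −0.28 after 12, beside medians of 0.00042 and −0.0047 over all genes tested.

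The 2 rarest genes need their counts to be read. SERPINF2, the antiplasmin gene, gave 7, 6, 4 and 7 counts in the control at 6 weeks, 10, 6, 10 and 10 at 0.1 µM and 14, 9, 9 and 7 at 1 µM. Its log2 fold change at 6 weeks was 0.59 at 0.1 µM (SE 0.36, edgeR adjusted p = 0.37) and 0.70 at 1 µM (SE 0.35, edgeR adjusted p = 0.385). At 12 weeks the control gave 7, 9, 23 and 4 counts and the 0.1 µM group 4, 3, 2 and 2, so that the groups met at 4 counts. The summed counts were 11 against 43, a ratio of 0.259 (95% exact interval 0.12 to 0.51, counting error only). Without the control library of vial 3, the other 3 control libraries summed to 20 counts, and the ratio was 0.415 (95% exact interval 0.18 to 0.909). The filter on low counts kept SERPINF2 out of the test at 12 weeks. In the fit of all 32 libraries its log2 fold change at 0.1 µM was −1.92 (SE 0.47, edgeR adjusted p = 0.0157). Without the filter on low counts, the 16 libraries of this time gave the same −1.92 with an adjusted p of 0.084 (edgeR). The fit of all libraries but the control of vial 3, chosen after the values had been seen, gave −1.24 (SE 0.47, edgeR adjusted p = 0.246), so that the call rested on that library.

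The 23 counts were in the control library of vial 3, the one with 919 counts of the 6 liver transcripts. The highest SERPINF2 count elsewhere was 14, and in the 8 libraries with at most 1 liver count it was 4 to 10. Liver transcripts summed to 95 to 155 counts in the 0.1 µM libraries at 12 weeks and to 81 to 919 in their controls. Their part in the SERPINF2 difference was not tested.

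**Figure D1:**
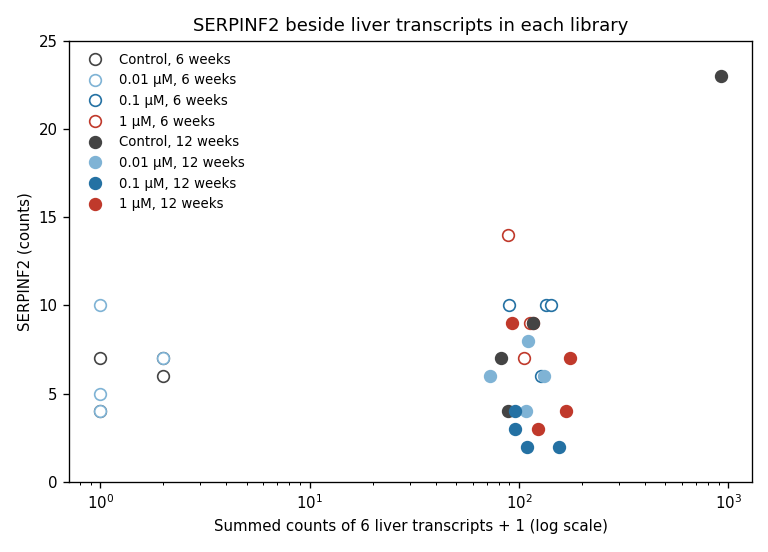
SERPINF2 counts (vertical axis) against the summed counts of 6 liver transcripts plus 1 (horizontal, log scale) in 32 libraries. Colors are PFOS concentrations, and open and filled points are 6 and 12 weeks. The control library of vial 3 at 12 weeks stands alone at 919 liver counts and 23 SERPINF2 counts, while the 8 libraries with at most 1 liver count have 4 to 10 SERPINF2 counts.

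SERPINF1, the PEDF gene, gave 11, 9, 7 and 7 counts in the control at 6 weeks, 7, 10, 22 and 16 at 0.01 µM and 15, 14, 15 and 12 at 0.1 µM. At 0.1 µM all 4 libraries were above the control, with a log2 fold change of 0.72 (SE 0.33, edgeR adjusted p = 0.203). At 0.01 µM the libraries spread over the whole range of the gene (0.69, SE 0.33, edgeR adjusted p = 0.516). At 12 weeks the means of the groups were 0.76 to 0.97 TPM and no difference was called.

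The second question was how the genes differed between 6 and 12 weeks within each treatment. The times were separate harvests, so that weeks in culture and anything else that differed between harvests cannot be told apart. A large share of all genes was called: 36.6% in the control, 42.7% at 0.01 µM, 40.3% at 0.1 µM and 30.1% at 1 µM. Of the 7 members, 1, 3, 3 and 2 were called, each of them lower at 12 weeks. The median log2 fold change of the members was 0.11, −0.22, −0.42 and −0.21 in the same order, beside at most 0.01 over all genes.

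SERPINE2 showed the largest difference of the members. It fell in all 4 treatments, and no library at 12 weeks reached the lowest at 6 weeks. In the control it was 81.2, 69.95, 78.9 and 68.2 TPM at 6 weeks and 20.0, 17.5, 32.8 and 20.5 TPM at 12 weeks. The log2 fold change was −1.64 (SE 0.13, edgeR adjusted p = 6.1e-10), a 3.11-fold lower mean in CPM. As a DEG that was lower with time in the control, SERPINE2 belonged to 2.69% of the genes tested. It was −1.75 at 0.01 µM, −1.88 at 0.1 µM and −1.61 at 1 µM (edgeR adjusted p = 2.4e-10, 9.2e-11 and 1.1e-09). In order of mean level, the 4 groups at 6 weeks overlapped their neighbors, as did the 4 at 12 weeks, and the only gap lay between 0.1 µM at 6 weeks (62.2 TPM) and 1 µM at 12 weeks (24.2 TPM).

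PLAU differed far less between the times. Its log2 fold change was 0.11 in the control (SE 0.08, edgeR adjusted p = 0.284), −0.22 at 0.01 µM (SE 0.08, edgeR adjusted p = 0.0265), −0.19 at 0.1 µM (SE 0.08, edgeR adjusted p = 0.0581) and −0.11 at 1 µM (SE 0.08, edgeR adjusted p = 0.305). The call at 0.01 µM was lost without vial 2 (edgeR adjusted p = 0.071) or vial 4 (edgeR adjusted p = 0.207). The ratio of PLAU to SERPINE2 in TPM was therefore 1.18 ± 0.172 at 6 weeks and 3.67 ± 0.646 at 12 weeks (SD, n = 16 each), with highest and lowest values of 1.42 and 2.50, so that the times did not overlap.

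PLAUR fell at all 3 PFOS concentrations, by 0.31 on the log2 scale at 0.01 µM (edgeR adjusted p = 0.00135), by 0.36 at 0.1 µM (edgeR adjusted p = 0.00024) and by 0.21 at 1 µM (edgeR adjusted p = 0.0301). The call at 1 µM was lost without vial 3 (edgeR adjusted p = 0.23) or vial 4 (edgeR adjusted p = 0.232). In the control the log2 fold change was −0.14 (SE 0.07, edgeR adjusted p = 0.15), and without the control library of vial 3 it was −0.21 (edgeR adjusted p = 0.025). PLAUR in the control at 6 weeks (86.3 to 90.2 TPM) did not overlap the group next in order, 0.01 µM at 6 weeks (79.3 to 85.6 TPM), while each later pair of neighbors overlapped. In scaled counts the control and 0.01 µM at 6 weeks did overlap. Their log2 fold change was −0.08 (SE 0.04, edgeR adjusted p = 0.572).

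SERPINB2 was not called with time in any treatment. Its log2 fold change was 0.43 in the control (SE 0.28, edgeR adjusted p = 0.23), −0.42 at 0.01 µM (SE 0.31, edgeR adjusted p = 0.287), −0.69 at 0.1 µM (SE 0.34, edgeR adjusted p = 0.103) and −0.36 at 1 µM (SE 0.30, edgeR adjusted p = 0.388). Without the control libraries of vials 3 and 4 at 12 weeks, the value in the control was −0.28. SERPINF2 fell at 0.1 µM, from 10, 6, 10 and 10 counts to 4, 3, 2 and 2 (log2 fold change −1.68, SE 0.49, edgeR adjusted p = 0.00647), a ratio of summed counts of 0.302 (95% exact interval 0.139 to 0.607, counting error only). In the control, the SERPINF2 value was 0.83 (SE 0.40, edgeR adjusted p = 0.103). Over the main test and its alternatives it was 0.01 to 1.19, with 1 call. The control library of vial 3 at 12 weeks gave 23 of these counts, and the others of its group 4 to 9. At 0.01 µM SERPINF2 was at −0.10 (SE 0.45, edgeR adjusted p = 0.876) and at 1 µM at −0.77 (SE 0.41, edgeR adjusted p = 0.163). PLAT stayed between −0.10 and 0.01 in log2 fold change, with no call.

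Whether the PFOS effect itself differed between the times was tested as an interaction. Of the 7 members, edgeR called 0 at each concentration, beside 0%, 0.208% and 0.123% of all genes at 0.01, 0.1 and 1 µM. Unadjusted p was under 0.05 for 2, 5 and 1 members, beside 972, 1879 and 1571 of all 12988 genes tested. DESeq2 called 0 members. The interaction at 0.1 µM was −1.13 for SERPINB2 (SE 0.43, edgeR adjusted p = 0.225) and −2.51 for SERPINF2 (SE 0.64, edgeR adjusted p = 0.0755). Over the main test and its alternatives, the SERPINB2 interaction ranged from −1.46 up to −0.41, with 0 calls. For SERPINF2 it was −1.84 without the control library of vial 3 at 12 weeks (edgeR adjusted p = 0.237).

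SERPINB2 and PLAUR were high in the same libraries at 12 weeks. In TPM, SERPINB2 was highest in the controls of vials 3 and 4 (34.2 and 28.6), followed by vial 1 at 1 µM (17.1) and of the control (16.7) and vial 2 at 1 µM (14), and in scaled counts the 5 highest libraries of SERPINB2 were also the 5 highest of PLAUR. Pearson's r of log2(CPM + 1) was 0.919 over the 16 libraries at 12 weeks, 0.338 over the 16 at 6 weeks and 0.757 over all 32, and 0.719 for the deviations from group means. SERPINE2 and SERPINB2 had an r of 0.782 for deviations from group means (0.81 at 6 weeks and 0.763 at 12 weeks). These values describe libraries that share vials, treatments and depth, and no test was made of them. PLAT had negative values with PLAUR (−0.372) and SERPINB2 (−0.308) for deviations from group means.

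**Figure D2:**
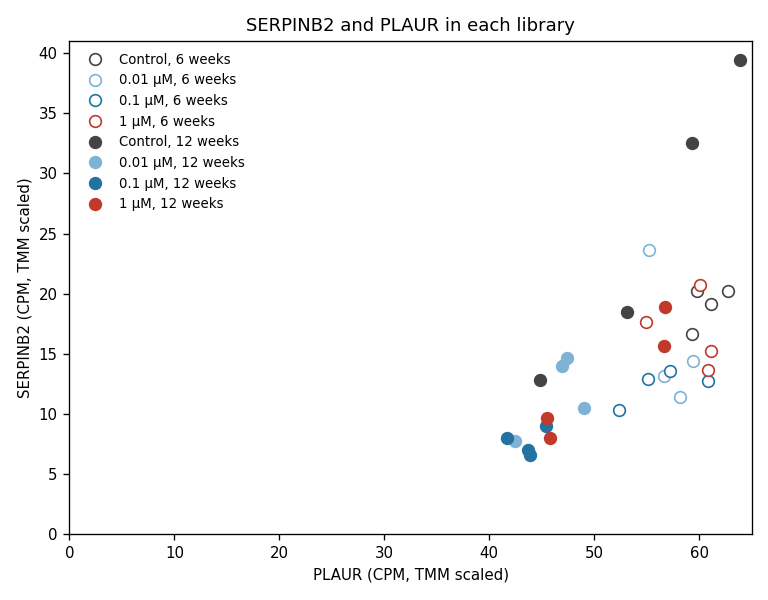
SERPINB2 against PLAUR in scaled counts (CPM) in each of 32 libraries. Colors are PFOS concentrations, and open and filled points are 6 and 12 weeks. The filled points run from 0.1 µM at the lower left (6.603 to 9.02 CPM of SERPINB2) to the controls of vials 4 and 3 at the upper right (32.6 and 39.4 CPM).

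Among the 12988 genes tested over all 32 libraries, those with levels most like PLAU were DUSP4 (r = 0.84), a phosphatase of MAP kinases, ECH1 (r = 0.795), an enzyme of fatty acid oxidation, and QPRT (r = 0.781), an enzyme of NAD synthesis. Those most like SERPINB2 were PPIF (r = 0.879), the mitochondrial cyclophilin, and KRTAP2-3 (r = 0.85), a keratin-associated protein gene.

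Other genes around the system were followed in 3 lists. In the 6 comparisons with control, edgeR called 0 of 15 genes for binding, receptors and clearance, 0 of 7 tested genes of coagulation and the contact system, and 0 of 8 tested other serpins. At an unadjusted p under 0.05, the numbers per comparison were 0 to 4, 0 to 2 and 0 to 3. Over all genes tested, from 1080 of 12742 to 2665 of 12836 were under this cut per comparison. DESeq2 was read for F3, TFPI, TFPI2 and THBD of these lists and called 0 of them. HRG, a plasma protein gene, and SERPINB5 were at 0 counts in all 32 libraries.

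Between 6 and 12 weeks in the control, 8 of 15 genes for binding, receptors and clearance fell and 2 rose, beside 36.6% of all genes called (2511 lower and 2245 higher of 12988). LRP1, the receptor that clears complexes of activators with their inhibitors, fell by 0.94 on the log2 scale (SE 0.08, edgeR adjusted p = 1.2e-09), and ITGB3, an integrin subunit, fell by 0.72. PLGRKT, a plasminogen receptor, rose by 0.40 (SE 0.06, edgeR adjusted p = 7.7e-06). Of 7 tested genes of coagulation, 3 fell and 1 rose, with a log2 fold change of −0.87 for F3 (tissue factor) and −0.95 for THBD (thrombomodulin). Of 8 tested other serpins, 4 fell and 0 rose, among them SERPING1, the C1 inhibitor gene (−1.28, SE 0.24, edgeR adjusted p = 6.7e-05). The median log2 fold change of these 3 lists in the control was −0.18, −0.14 and −0.36, beside 0.004 over all genes tested.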

How the data were processed

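Per the labels, mRNA was enriched with oligo(dT), libraries kept the strand, and DNBSEQ was the sequencer. The authors estimated expected counts and TPM per gene and deposited them for each library without pooling. The submitters' processing notes name HISAT2 2.0.4, Bowtie2 2.2.5, RSEM 1.2.8 and GRCh38.p14. Deposited normalized and FPKM tables were not used, and 0 columns were left unmapped. The expected counts were rounded to whole numbers and tested with edgeR 4.0.16 in R 4.3.3 (limma 3.58.1; TMM normalization, filter on low counts, robust quasi-likelihood test, two-sided, Benjamini-Hochberg adjustment), with 16 libraries of 1 time for PFOS against control and the trend, and all 32 for 12 against 6 weeks and the interaction. Exact permutation tests and correlations used log2(CPM + 1), a pseudocount of 1. Alternatives were DESeq2 1.42.0, other scaling, filters and library sets, and the vial as block. The test was checked on simulated counts. Python 3.11.15, numpy 2.4.6, pandas 2.3.3 and scipy 1.17.1 were used for the rest.

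Groups and vials came from the sample labels, which state that each flask was divided over the treatments, so the vial numbers pair the libraries by label. The mean correlation of same-numbered libraries was 0.0578 to 0.137 over pairs of groups at 6 weeks and −0.174 to 0.148 at 12 weeks. The lowest was that of control and 1 µM at 12 weeks, where all 4 vials were negative (−0.203 to −0.0937), so the pairing of these groups is not borne out by the data. The p-values measure the spread between vials of 1 cell line. Depth was similar in all libraries, and intervals on counts cover counting error only. All 7 members were named, list genes were named where at 0 or as examples. The most similar genes, up to 3, were given for PLAU and for members called against control. Some results of the gene lists and of the similar genes are not reported here. The members and lists were chosen with earlier results of these data known. Positions and promoters were taken from RefSeq.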

Additional observations from a re-analysis of the deposited data

Results flagged for a closer look

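Each gene in each group of 4 libraries was examined for a library far from the others by Dixon's ratio at its 95% critical value, over 56 sets in all, of which 3 were flagged. Chance flags about 5% of such sets. PLAU was 71.5 TPM in the control library of vial 1 at 12 weeks, where the nearest other library had 82.0 TPM. SERPINF1 was 0.49 TPM in the same library, with 0.91 TPM in the nearest other. SERPINF2 was 0.26 TPM in the 0.1 µM library of vial 2 at 6 weeks, with 0.46 TPM in the nearest other, a difference of a few counts. None of the 21 interaction tests of the members was past the threshold with edgeR (8 had an unadjusted p under 0.05, and DESeq2 called 0). Over all 12988 genes tested, 972 to 1879 per concentration were under this unadjusted cut.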

How the results depend on the processing

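Over all comparisons and alternatives, 1203 of 1300 values of single members kept their direction and side of the threshold, 16 gained and 13 lost a call, and 68 changed sign, with 0 of these called in the main test. Among the values printed here, the sign changed for SERPINB2 in 12 against 6 weeks of the control. Its value was −0.28 without the control libraries of vials 3 and 4 at 12 weeks, an alternative chosen after seeing the data. Between the times, the sign also changed for SERPINF2 at 0.01 µM (−0.44 to 0.19). PLAT, printed as a range near 0, changed sign in the control, at 0.1 µM (−0.08 to 0.07) and at 1 µM. The number of members called at 0.1 µM after 12 weeks was 1, and it was 2 with DESeq2, 3 in a fit of all 32 libraries, 0 without a filter on low counts, 0 with only these 8 libraries, 0 with the vial block, and 0 to 1 when 1 vial or control library was left out. The number of all genes called moved as well. It was 136 of 12742 in the main test, 282 of 12742 with DESeq2 and 540 of 12988 in the fit of all 32 libraries. Without the filter it was 134 of 16901, with only these 8 libraries 96 of 12563 and with the vial block 171 of 12742. Leaving out 1 vial gave 4 of 12747 to 315 of 12741, and leaving out the control library of vial 3 gave 26 of 12789. Without vial 2 the 1 call was PLAUR in place of SERPINB2. The number of members was also 0 without the control libraries of vials 3 and 4, beside 6 of 12869 genes. At 0.1 µM after 6 weeks the number of members was 0, and 2 with DESeq2, 2 with only these 8 libraries and 1 with the vial block (SERPINE2). Over all genes, 544 of 12836 were called in the main test and 624 of 12836 with DESeq2. With only these 8 libraries 587 of 12672 were called, and with the vial block 739 of 12836. The trend at 12 weeks gave 0, and 1 in the fit of all 32 libraries, beside 53 of 12742 and 563 of 12988 genes. For 12 against 6 weeks, the control gave 1 (1 to 2 when 1 vial or library was left out, 2 without the control libraries of vials 3 and 4), and 1 µM gave 2 (1 to 2 without 1 vial). Of all genes, the control gave 4756 of 12988, and 3341 of 13002 to 3951 of 12990 without 1 vial. It gave 4670 of 13041 without its library of vial 3 and 4307 of 13125 without those of vials 3 and 4. At 1 µM, 3903 of 12988 genes were called, and 2498 of 12990 to 3270 of 12990 without 1 vial. At 0.01 µM the number of members was 3 (2 to 3 without 1 vial), and at 0.1 µM it was 3 (4 with DESeq2, 2 with at least 10 counts in every library, 3 to 4 without 1 vial). Of all genes, 0.01 µM gave 5550 of 12988, and 4298 of 12990 to 5057 of 12990 without 1 vial. At 0.1 µM, 5235 of 12988 genes were called, and 5039 of 12988 with DESeq2. With at least 10 counts 4942 of 12002 were called, and without 1 vial 4041 of 13002 to 4490 of 13002. PLAU at 0.1 µM was called with DESeq2 and without vial 1 or vial 2, and SERPINB2 without the control libraries of vials 3 and 4 (edgeR adjusted p = 0.0452). The block changed no other call against control. The cause of these changes was not tested. CPM in place of TPM moved no ratio of 12 over 6 weeks in the control beyond its spread. Low counts limit SERPINF2 and SERPINF1.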
